A study of Rattus norvegicus with 3 samples.

Results

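The genes described here encode Nogo, its reticulon relatives, the other classical myelin inhibitors of axon growth and the receptors that neurons use to sense them. They are RTN4, RTN4R, RTN4RL1, RTN4RL2, OMG, MAG, LINGO1, RTN1 and RTN3, and they were found by gene symbol in the deposited table of RNA from the cell-free supernatant of rat spinal cord. Of these 9 genes, 7 have an entry among the 12771 entries of the table. RTN4R and RTN4RL2 have none under their symbols or under the synonyms of the rat reference, and nothing is said here about their levels.

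Female Sprague Dawley rats aged 3 months received, at T9, either only a laminectomy (No-SCI) or a laminectomy with a moderate to severe contusion of the exposed cord with an impactor (SCI). After 24 h, cord just rostral to the lesion was digested at low temperature with a bacterial protease, the cells were pelleted, and the RNA of the supernatant was sequenced after removal of ribosomal RNA. The labels list 2 No-SCI libraries and 1 SCI library, while the methods give 2 animals per condition. The deposited levels are the authors' FPKM, that is fragments scaled by transcript length and by library size, with 1 value per group for each gene. No value for a single library is given, so neither the variation from rat to rat nor the read depth of a level is known, and no difference could be tested. Differences are therefore described as the ratio of the SCI level to the No-SCI level, and a gene is counted as lower or higher when the 2 levels differ by at least 2-fold.

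Myelin of the adult central nervous system carries proteins that stop growing axons. Nogo, from RTN4, and MAG and OMgp, from MAG and OMG, are made by oligodendrocytes and can bind the same neuronal receptor, the Nogo receptor of RTN4R. That receptor has no cytoplasmic part and signals through partners such as LINGO1 and the neurotrophin receptor p75 or its relative TROY, which activate the small GTPase RhoA and its kinase ROCK and collapse the growth cone. The reticulons RTN1, RTN3 and RTN4 share a C-terminal membrane domain that bends the tubules of the endoplasmic reticulum, so they serve in neurons and glia apart from any role in inhibition.

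The stretches before the transcription start of the 3 genes MAG, OMG and RTN1 are shown because these genes were at least 2-fold lower after SCI. They come from RefSeq on the GRCr8 rat assembly, which had a promoter window of 300 bases for 7 of the 9 genes (not for RTN4 or RTN4RL1). All 3 are read 5′ to 3′ on the minus strand, and bases that belong to the annotated gene are left out. They lie at chr1:95291134-95291294 (MAG), chr10:64962051-64962300 (OMG) and chr6:96719341-96719590 (RTN1). Capitals mark matches to the letters searched on both strands, CTGGCAC or CTGGTAC for MYRF and ACAAAG or ACAATG for SOX factors such as SOX10, both regulators of myelin genes, and CAGCTG or CATCTG for OLIG factors.
MAG: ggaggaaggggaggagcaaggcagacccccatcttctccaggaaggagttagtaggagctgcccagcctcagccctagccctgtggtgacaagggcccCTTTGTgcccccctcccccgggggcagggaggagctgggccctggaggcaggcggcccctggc
OMG: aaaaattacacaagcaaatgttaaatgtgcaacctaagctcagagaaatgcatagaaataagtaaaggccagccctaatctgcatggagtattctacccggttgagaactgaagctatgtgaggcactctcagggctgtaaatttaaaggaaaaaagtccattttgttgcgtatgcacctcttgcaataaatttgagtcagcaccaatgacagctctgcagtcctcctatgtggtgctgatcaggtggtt
RTN1: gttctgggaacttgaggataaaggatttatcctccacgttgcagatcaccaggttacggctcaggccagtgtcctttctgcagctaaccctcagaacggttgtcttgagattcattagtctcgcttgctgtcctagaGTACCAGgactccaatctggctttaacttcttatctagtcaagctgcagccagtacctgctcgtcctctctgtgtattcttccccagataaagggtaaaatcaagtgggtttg

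In the whole window of MAG there was 1 match for MYRF, whose first base lies 94 bases before the start and whose last bases run past the printed stretch, and 1 for SOX. RTN1 had 1 match for MYRF. OMG had 1 match for SOX and 1 for OLIG, both in the bases after the start, which are not printed. Of the other windows searched, that of LINGO1 had 1 match for OLIG, and those of RTN3, RTN4R and RTN4RL2 had 0 for any of these factors. Of all 33469 promoter windows of this length, 6.78% hold a MYRF match, 29.1% a SOX match and 29.1% an OLIG match. These are matches of letters and show no binding.

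All 7 listed genes had a lower level after SCI than in No-SCI, and 4 of them, MAG, OMG, RTN1 and RTN4, were lower by at least 2-fold. None was at least 2-fold higher. Over all entries 12.1% were at least 2-fold lower and 7.96% at least 2-fold higher. The median log2 ratio of the 7 genes was −1.36, against −0.12 over all entries, of which 56.3% were lower by any amount. RTN3 lay just outside the 2-fold limit at 1.99-fold lower, and RTN4 was the member just inside it at 2.58-fold lower. In No-SCI the levels in FPKM ran in the order MAG, RTN3, RTN4, RTN1, OMG, LINGO1 and RTN4RL1. After SCI RTN3 stood above MAG and LINGO1 above OMG, and the others kept their places. Without a spread between animals it cannot be said which neighbours in this order differ.

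**Figure D1:**
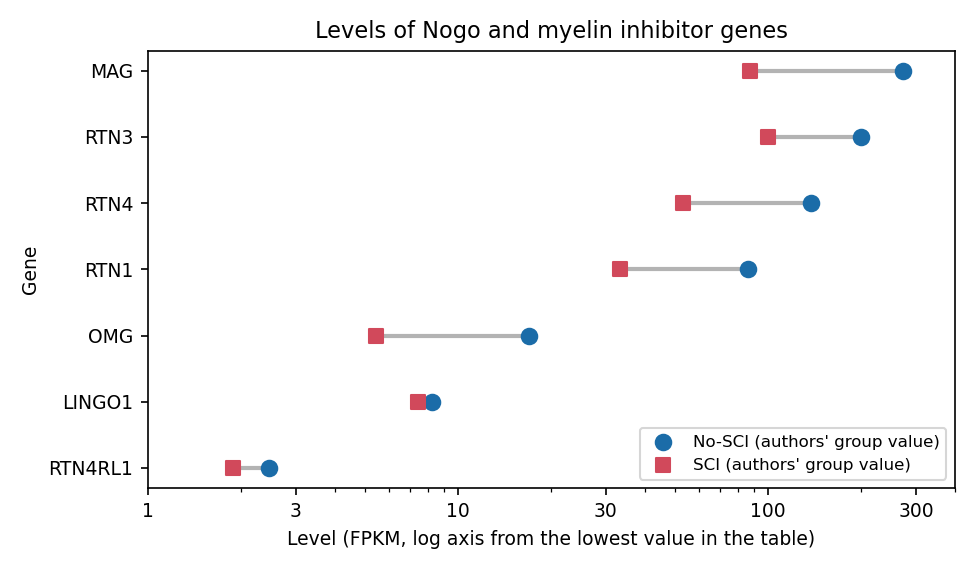
Levels of the 7 listed genes on a log axis in FPKM, with a circle for the authors' No-SCI value, a square for the authors' SCI value and a line joining them. The squares of MAG, OMG, RTN1 and RTN4 lie far to the left of their circles, RTN3 is lower by 1.99-fold, and the 2 values of LINGO1 nearly meet.

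MAG, the myelin-associated glycoprotein of the innermost myelin membrane that faces the axon, was the most abundant of the inhibitor genes in No-SCI. Its No-SCI level was 272 FPKM and its SCI level 87.4 FPKM, a 3.11-fold lower level and a log2 ratio of −1.64. It stood at percentile 94.1 of all entries in No-SCI and at 83.5 after SCI, and 2.89% of entries had a lower log2 ratio.

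OMG encodes the oligodendrocyte myelin glycoprotein, a leucine-rich repeat protein held on the membrane by a lipid anchor and found on oligodendrocytes and on some neurons. Its No-SCI level was 16.9 FPKM and its SCI level 5.45 FPKM, a 3.10-fold lower level and a log2 ratio of −1.63. The level of MAG was 16.1 times that of OMG in No-SCI and 16.03 times after SCI. As deposited, the ratio between these 2 myelin genes was thus nearly the same in both groups. With 1, the lowest value in the table, subtracted from every value, it was 17.04 in No-SCI and 19.41 after SCI. In the rat reference OMG lies inside NF1, and the strand setting used in counting is not given in the sources used here. NF1 had a No-SCI level of 2.95 FPKM and an SCI level of 2.45 FPKM, below OMG in both groups.

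RTN4 is the Nogo gene. Its No-SCI level was 137 FPKM and its SCI level 53.3 FPKM, a 2.58-fold lower level and a log2 ratio of −1.36, with 5.35% of entries below that ratio. The gene makes the long isoform Nogo-A, with an inhibitory stretch that the shorter Nogo-B and Nogo-C lack. It also makes a circular RNA, which the study measured by RT-qPCR in mouse spinal cord at a later time, not in these rats. The study also lists these RTN4 levels among its putative circular RNAs. A gene-level FPKM does not separate these forms. RTN4 overlaps EML6 in the rat reference, and the No-SCI level of EML6 was 5.18 FPKM and its SCI level 2.99 FPKM.

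The reticulons RTN1 and RTN3 are relatives of Nogo. RTN1, first described as a protein of neuroendocrine cells and abundant in neurons, had a No-SCI level of 86.4 FPKM and an SCI level of 33.4 FPKM, a 2.59-fold lower level and a log2 ratio of −1.37. RTN3, which is widely expressed and known to restrain the β-secretase BACE1, had a No-SCI level of 199 FPKM and an SCI level of 99.8 FPKM. Of the 3 reticulons RTN3 had the smallest difference, and it became the most abundant of the 7 genes after SCI.

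The ratio of RTN1 to RTN4 levels was 0.629 in No-SCI and 0.626 after SCI. That of RTN4 to RTN3 was 0.690 in No-SCI and 0.534 after SCI. The fourth gene of the family, RTN2, is known from an inherited spastic paraplegia and belongs to the list of proteins that shape the endoplasmic reticulum. Its No-SCI level was 30.6 FPKM and its SCI level 32.1 FPKM, a log2 ratio of 0.07, so it stood at 0.223 times the level of RTN4 in No-SCI and at 0.602 times after SCI.

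**Figure D2:**
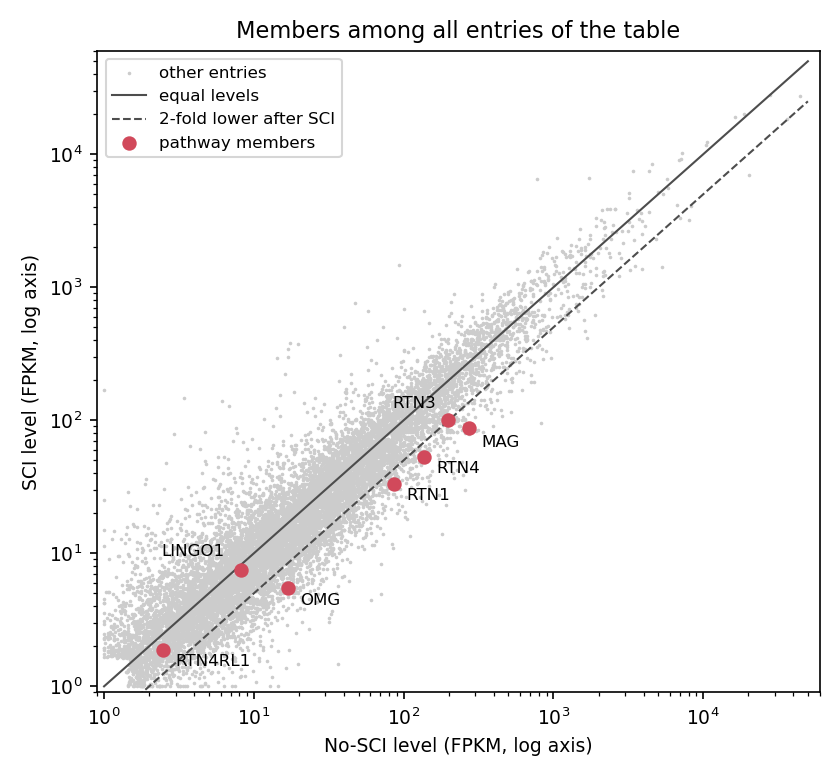
Level after SCI against level in No-SCI for every entry of the table in FPKM on log axes (grey), with the 7 genes in red, a solid line for equal levels and a dashed line for a 2-fold lower level. MAG, OMG, RTN1 and RTN4 lie below the dashed line, RTN3 on it, and LINGO1 and RTN4RL1 between the lines.

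The receptor genes were listed at low levels and lay closer to equal levels in the 2 groups. LINGO1, the leucine-rich repeat partner of the Nogo receptor on neurons and also a brake on oligodendrocyte maturation, had a No-SCI level of 8.27 FPKM and an SCI level of 7.45 FPKM, a 1.11-fold lower level and a log2 ratio of −0.15. Its percentile among all entries was 32.1 in both groups. RTN4RL1, a homologue of the Nogo receptor also called NgR3 and known to bind chondroitin sulfate chains, had a No-SCI level of 2.46 FPKM and an SCI level of 1.89 FPKM, a log2 ratio of −0.38. Both values of RTN4RL1 lie near 1, the lowest value anywhere in the table.

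Relative to LINGO1, the levels of the ligand genes were lower after SCI. The RTN4 level was 16.6 times that of LINGO1 in No-SCI and 7.16 times after SCI. The MAG level was 32.9 times that of LINGO1 in No-SCI and 11.7 times after SCI. OMG stood at 2.04 times LINGO1 in No-SCI and at 0.732 times after SCI.

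The signalling partners and further receptors named next were listed at low levels. NGFR, the p75 receptor, had a No-SCI level of 1.83 FPKM and an SCI level of 1.90 FPKM. TNFRSF19, the gene of TROY, had a No-SCI level of 2.42 FPKM and an SCI level of 1.54 FPKM, a log2 ratio of −0.65. PIRB, a further receptor for Nogo, MAG and OMgp, had a No-SCI level of 1.91 FPKM and an SCI level of 1.58 FPKM. These 3 genes, and CRTAC1, were picked for their roles after the values were seen, and none differed by 2-fold as deposited. With 1, the lowest value in the table, subtracted from every value, the log2 ratio of TNFRSF19 was −1.40, past 2-fold. CRTAC1 encodes LOTUS, a natural antagonist of the Nogo receptor, and had a No-SCI level of 2.81 FPKM and an SCI level of 2.02 FPKM.

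Of 18 receptor partners, alternative receptors and antagonists, 14 have an entry. They had a median log2 ratio of −0.28, with 2 of them at least 2-fold lower and none at least 2-fold higher. The 2 are 14.3% of the 14, beside 12.1% of all entries. LGI1, a secreted neuronal protein that binds the Nogo receptor, had a No-SCI level of 7.31 FPKM and an SCI level of 2.93 FPKM, a log2 ratio of −1.32. GPR17, a receptor of differentiating oligodendrocyte precursors that also stands on the list of precursor markers, had a No-SCI level of 6.84 FPKM and an SCI level of 1.37 FPKM, a log2 ratio of −2.32 that was −3.98 with 1 subtracted from every value. The most abundant of the 14 were WNK1, a kinase reported to bind LINGO1, with 665 FPKM in No-SCI, OLFM1 with 83.5 FPKM and ITGB1 with 77.8 FPKM. LINGO2, LINGO3, LINGO4 and EGFR have no entry.

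Other inhibitors of axon growth from myelin and matrix, with their receptors, had 17 of 19 genes listed and a median log2 ratio of −0.74. Of these, 5 were at least 2-fold lower, which is 29.4% beside 12.1% of all entries, and 1 was at least 2-fold higher. Among the fewer genes of the list with a mean of at least 5 FPKM these counts were 2 (SEMA4D and BCAN) and 0. SEMA4D, a semaphorin of oligodendrocytes, had a No-SCI level of 244 FPKM and an SCI level of 83.9 FPKM, a log2 ratio of −1.54. PLXNB1, its plexin receptor, had a No-SCI level of 6.59 FPKM and an SCI level of 2.63 FPKM, a log2 ratio of −1.33. The log2 ratio of SEMA6A, a semaphorin that acts through plexin-A receptors, was −1.34.

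Among the proteoglycan cores of this list, BCAN had a No-SCI level of 212 FPKM and an SCI level of 82.1 FPKM, a log2 ratio of −1.37, and NCAN had a log2 ratio of −1.32. The third most abundant gene of the list was PTPRF, a receptor phosphatase, with 59.5 FPKM for No-SCI and 40.6 FPKM for SCI. NTN1, which encodes the guidance protein netrin-1, was the gene at least 2-fold higher, with 1.57 FPKM for No-SCI and 5.06 FPKM for SCI.

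Downstream of the receptors, all 22 genes of the RhoA and ROCK list have an entry, and their median log2 ratio was −0.17, near that of all entries. There were 12 lower and 10 higher after SCI by any amount, 2 at least 2-fold lower and 0 at least 2-fold higher. Those at least 2-fold lower make 9.09% of the list, beside 12.1% of all entries. RHOA had a No-SCI level of 744 FPKM and an SCI level of 651 FPKM, a log2 ratio of −0.19. The log2 ratios of its kinases ROCK1 and ROCK2 were −0.41 and −0.14. RHOA, ROCK1 and ROCK2 were also picked for their roles after the values were seen.

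The most abundant genes of the list were CFL1, the actin-severing cofilin that this pathway restrains, with 4116 FPKM for No-SCI and 2881 FPKM for SCI, and then ARHGDIA and CDC42. The genes past 2-fold were DPYSL2, the collapsin response mediator CRMP2 that ROCK phosphorylates, with a log2 ratio of −1.19, and PRKCA, a protein kinase C that acts in signalling by myelin inhibitors, with −1.08.

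Of 18 proteins that shape the endoplasmic reticulum or bind reticulons, 16 are listed, with a median log2 ratio of −0.49. REEP1, a tubule-shaping protein of neurons, was the 1 gene at least 2-fold lower, with 29.4 FPKM for No-SCI and 13.8 FPKM for SCI. That 1 gene is 6.25% of those listed, beside 12.1% of all entries. REEP5, ARL6IP1 and RTN2 were the most abundant, and the log2 ratio of REEP5 was −0.46. Among 11 enzymes of ganglioside synthesis, which make the glycolipids that MAG binds on axons, the median log2 ratio was −0.17. ST3GAL3, a sialyltransferase, was the 1 gene at least 2-fold higher, with 5.80 FPKM for No-SCI and 12.3 FPKM for SCI. In this list 0 genes were at least 2-fold lower. Of all entries, 7.96% were at least 2-fold higher and 12.1% at least 2-fold lower. ST3GAL5, which starts the pathway by making GM3, was the most abundant, with a log2 ratio of 0.11.

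Several lists of cell type markers differed between the groups too. In RNA of a cell-free supernatant, the number of cells of a type, the RNA per cell and the share of it that reached the supernatant cannot be told apart. Of 32 oligodendrocyte markers 30 are listed (MBP and ENPP2 are not), with a median log2 ratio of −1.003. Among the 30, 15 were at least 2-fold lower, which is 50% beside 12.1% of all entries, and 2 at least 2-fold higher. The summed level of this list was 103229 FPKM for No-SCI and 61309 FPKM for SCI, most of it from MOBP and BCAS1. A lower log2 ratio than that of MAG was seen for 7 of the 30. The level of MAG was 0.144 times that of CNP in No-SCI and 0.142 times after SCI, and it was 1.97 and 1.37 times that of MOG.

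Of 30 neuronal markers 28 are listed (SNAP25 and NEFM are not), with a median log2 ratio of −0.65. Among the 28, 8 were at least 2-fold lower, which is 28.6% beside 12.1% of all entries, and 0 at least 2-fold higher. Their summed level was 2822 FPKM for No-SCI and 2416 FPKM for SCI, led by GAP43, CELF4 and THY1. A lower log2 ratio than that of RTN4 was seen for 4 of the 28 neuronal markers and for 10 of the 30 oligodendrocyte markers.

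Of the other marker lists, the precursor list (11 of 12 listed, LHFPL3 absent) had a median log2 ratio of −0.46. The median was −1.12 for the astrocyte list (15 of 20, without GFAP, AQP4, S100B, SLC1A3 and ALDOC). It was 0.05 for the microglia and macrophage list (17 of 18, without CTSS). Of the listed astrocyte markers, 9 (60%) were at least 2-fold lower and 0 at least 2-fold higher. These counts were 4 (36.4%) and 1 for precursors and 3 (17.6%) and 3 for microglia and macrophages. Beside them, 12.1% of all entries were at least 2-fold lower and 7.96% at least 2-fold higher. Markers from outside the cord parenchyma moved most. The meningeal fibroblast list (13 of 16, without SLC22A6, SLC47A1 and DPP4) had a summed level of 119 FPKM for No-SCI and 1682 FPKM for SCI, and the skeletal muscle list (10 of 11, without ACTN3) 473 FPKM for No-SCI and 132 FPKM for SCI. The part of these shifts in the differences of the 7 genes was not tested.

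**Figure D3:**
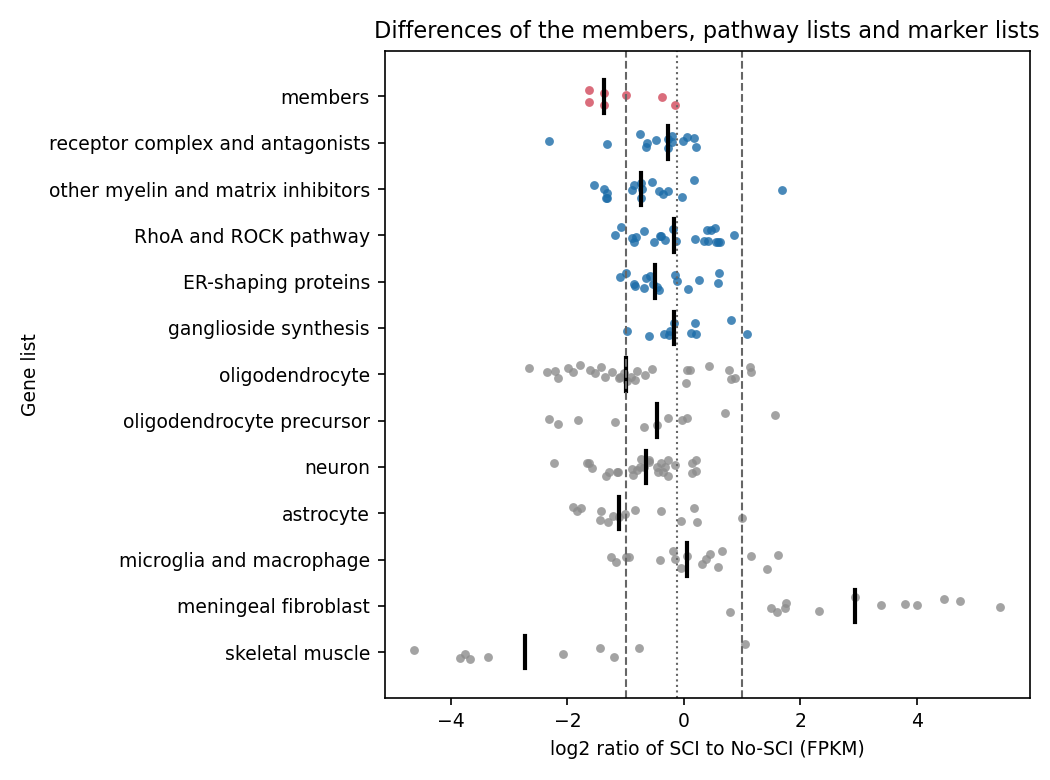
log2 ratio of SCI to No-SCI for each listed gene (points) and the list median (black bar), for the 7 genes (red), the pathway lists (blue) and the marker lists (grey). Dashed lines mark 2-fold and the dotted line the median of all entries, −0.12, and the red bar stands at −1.36.

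Because several marker lists shifted, the ratios of the 7 genes were also expressed against the neuronal and the oligodendrocyte list, and not the others. Set against the median of the neuronal list, MAG was at −0.99 and OMG at −0.99 on the log2 scale, RTN1 at −0.73 and RTN4 at −0.72. Set against the median of the oligodendrocyte list, MAG was at −0.64, OMG at −0.63, RTN1 at −0.37 and RTN4 at −0.36. A list median moves every gene by the same amount, 0.65 for the neuronal and 1.003 for the oligodendrocyte list, so these values restate the deposited ratios against another zero. On that scale the 4 genes were lower by less than 2-fold, LINGO1 and RTN4RL1 were above 0 against both lists, and RTN3 was at 0.0078 against the oligodendrocyte list. Under the scalings that do not use marker lists, which moved all genes by up to 0.12, the direction of the 7 genes did not change. LINGO1 came close to equal levels, at −0.03 with the median of all entries centred and −0.05 with the upper quartile equalized.

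**Figure D4:**
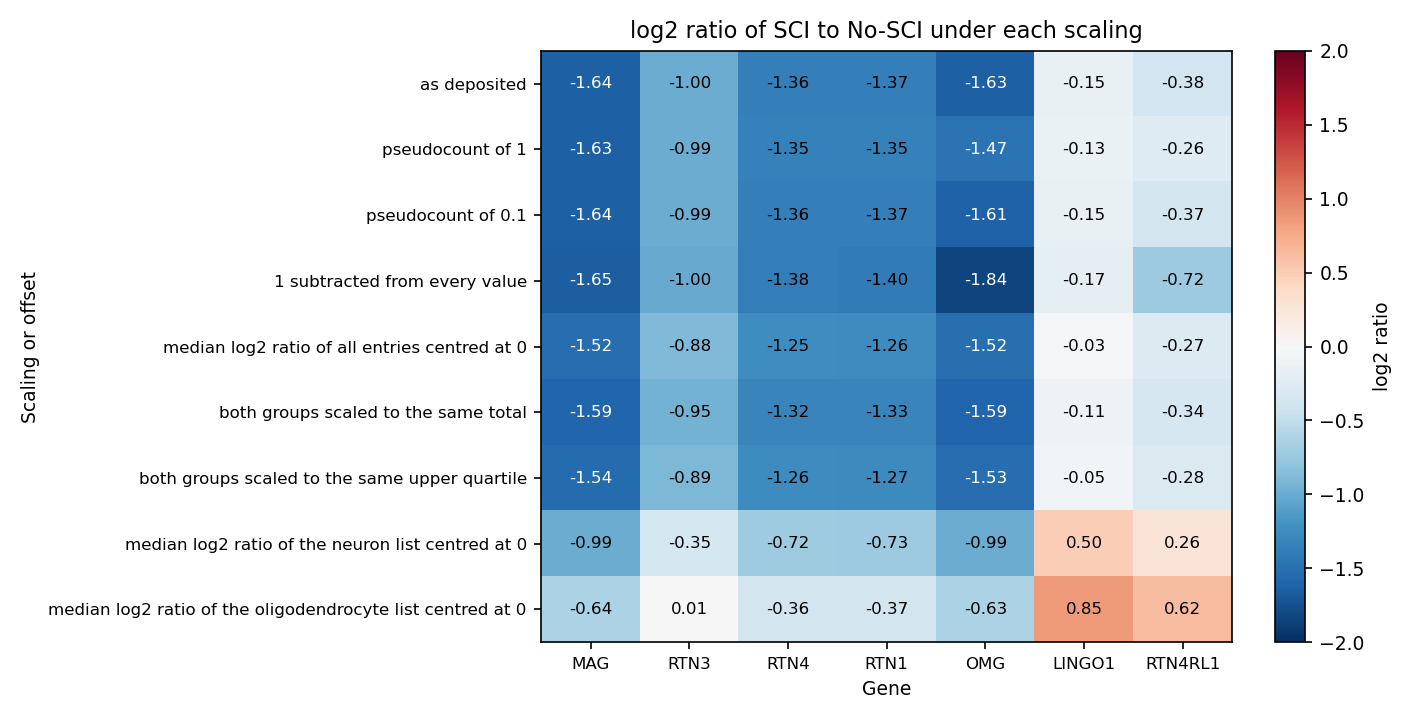
log2 ratio of SCI to No-SCI of the 7 genes (columns) as deposited and under 8 other scalings or offsets (rows), with blue for lower and red for higher after SCI. The columns of MAG, OMG, RTN4 and RTN1 are blue in every row, while LINGO1 and RTN4RL1 turn red when the neuronal or oligodendrocyte list is centred.

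Among the genes of the table whose pair of levels lay nearest to that of RTN4, by distance over the log2 levels of the 2 groups, were PLCD4 and SASH1. The distance of PLCD4 was 0.07, with a No-SCI level of 138 FPKM and an SCI level of 55.8 FPKM. Nearest to MAG were MINAR2, CSDC2 and ERMN, and ERMN, a cytoskeletal protein of myelin, had a No-SCI level of 271 FPKM and an SCI level of 79.03 FPKM. A likeness over 2 values is a weak one and was not tested.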

How the data were processed

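RNA-seq libraries of supernatant RNA from No-SCI and SCI cord were downsampled by the authors to the smallest library, aligned to rn6 with STAR 2.5.4b and quantified with Cuffdiff 1.3.0 (versions as in the submitters' processing notes and the paper's methods). The deposited FPKM are the authors' group values, upper quartile normalized, 1 per group. The authors' deposited p-values, q-values, fold changes and log2 fold changes hold their comparison of SCI with No-SCI and were not used. Columns were assigned by the group each names, and 0 columns were left out.

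No pseudocount was added when the SCI level was divided by the No-SCI level and the log2 taken, and 2-fold was the limit for counting a gene. For the 13 symbols listed more than once, none of them a member, the entry with the larger mean was kept. No test was run, since no group has a value per library, and p-values across genes were not made. The study's own minimum of 1.3-fold was an alternative. Others were pseudocounts of 1 and 0.1, subtracting 1, scaling to the median, total, upper quartile or marker lists, fold minimums of 1.5 and 3, a mean of at least 5 FPKM, list means and summed repeats. Members and lists were chosen with earlier results of these data known.

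Every member is named, together with the 3 most abundant genes of each pathway list and up to 6 of its genes past 2-fold. The 3 genes nearest to RTN4 and to MAG are also named. Some genes that this rule takes in are not reported here. Gene symbols were matched to RefSeq GRCr8 for synonyms, overlaps and promoters, and no coordinates of the files' own build are given. Ratio and count steps were tested on simulated data. Python 3.11.15, numpy 2.4.6, pandas 2.3.3 and matplotlib 3.10.9 were used.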

Additional observations from a re-analysis of the deposited data

How the results depend on the processing

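Each value is 1 authors' number per group, so no library could be left out and no error can be given. No paired analysis applied, because the No-SCI and SCI groups were separate rats. With a 3-fold minimum 2 of the 7 genes were lower, beside 3.27% of all entries, and with 1.3-fold 6, beside 35.7%. Without a list as reference no direction of the 7 changed, though LINGO1 came to −0.03 with the median of all entries centred. RTN3 passed 2-fold with 1 subtracted (−1.003). Against the neuronal median RTN4RL1 was at 0.26 and LINGO1 at 0.50, and against the oligodendrocyte median RTN4RL1 was at 0.62, LINGO1 at 0.85 and RTN3 at 0.0078. No spread is known, so a pathway list count or level ratio is given here if it moved by over 1.5 times. A median would be if its fold did or its sign changed, which happened for no pathway list. Some counts and medians of the marker lists also moved by that much and are not given here. With a mean of at least 5 FPKM, 1 receptor partner and 2 other inhibitors were lower and 0 other inhibitors higher. That limit leaves fewer genes in each of these lists, and 12.1% of all entries of at least that mean were lower and 7.64% higher. With the median or the upper quartile equalized, 1 RhoA and ROCK gene and 0 reticulum-shaping genes were lower. Of all entries, 9.59% and 9.91% were lower under these scalings. With 1 subtracted, 4 reticulum-shaping genes and 1 ganglioside enzyme were lower and 2 ganglioside enzymes higher. The shares of all entries were then 16.2% lower and 10.4% higher. With a pseudocount of 1, 0 enzymes were higher, beside 6.41% of all entries. The LINGO1 level after SCI was 7.27 times that of RTN4RL1 with 1 subtracted, against 3.95 as deposited.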

Other observations

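The number of decimals in the deposited levels changed just above round values, which touches the low receptor genes. Of 1378 values from 1.1 to below 2 FPKM, 87.5% carry 6 decimals, against 21.4% of 4600 values from 4 to below 9. Of 585 values from 10 to below 11, 80.9% carry 5 decimals, against 45.7% of 10560 values from 12 to below 90. Of 28 values from 100 to below 101, 82.1% carry 4 decimals, against 50.7% of 3374 values from 102 to below 900. No value lies below 1, and 18 No-SCI and 37 SCI values are exactly 1. Whether a constant was added before deposit was not tested. With 1 subtracted from every value, the log2 ratio of RTN4RL1 was −0.72 and that of TNFRSF19 −1.40, past 2-fold. On the same scale OMG was at −1.84, MAG at −1.65, RTN4 at −1.38 and LINGO1 at −0.17.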
